A study of Homo sapiens with 8 samples.

Results

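ACHN is an established human renal carcinoma line that was grown from a metastatic pleural effusion. Its response to A939572 was read from 2 of the 8 arrays of the series, 1 of ACHN cells given 75 nM A939572 for 24 h and 1 of ACHN cells given the solvent DMSO. The same pair of arrays in CAKI2, A498 and CAKI1, the other 3 renal carcinoma lines, served for comparison, and each of these lines also had 1 array with A939572 and 1 with DMSO. All 4 lines were cultured in the same DMEM medium with serum, and the submitters call all of them clear cell lines. The question was how far the ACHN difference, A939572 minus DMSO, went beyond the mean and the range of the same difference in the other 3 lines.

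A939572 blocks stearoyl-CoA desaturase 1, which puts the double bond into newly made saturated fatty acids. When saturated acyl chains accumulate, cells are known to activate the unfolded protein response, in which the sensors PERK, IRE1 and ATF6 raise chaperones and the transcription factors ATF4 and CHOP. A separate stress pathway runs through NRF2 (NFE2L2), a transcription factor that KEAP1 holds back and that turns on glutathione, thioredoxin and quinone-detoxifying genes when KEAP1 is modified by electrophiles or oxidants. Interferon-stimulated genes depend on STAT and IRF factors, and many of them encode antiviral proteins. NRF2 binds the antioxidant response element and the interferon factors bind the interferon-stimulated response element, both of which are short DNA motifs near the start of their target genes.

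Among the gene lists read below, those of these last 2 pathways had the largest median differences of ACHN from the other lines, 1.14 and -0.63. Promoters of 4 such genes are therefore shown with the motif letters in capitals. The sequences are the 250 bases before the gene start in the RefSeq annotation of GRCh38.p14, given 5′ to 3′ on the gene's own strand. TXNRD1 (thioredoxin reductase 1, the first listed of its 2 promoters) lies at chr12:104215529-104215778 on the plus strand, and GCLM (the modifier subunit of glutamate-cysteine ligase) at chr1:93909431-93909680 on the minus strand. IFIT1, an antiviral RNA-binding protein, lies at chr10:89392373-89392622 and IFI44L, an interferon-stimulated gene, at chr1:78620198-78620447, both on the plus strand. Capitals mark TGACNNNGC, the core of the antioxidant response element, in the first pair. In the second pair they mark the core of the interferon-stimulated response element, a GAAA followed by any 2 bases and a second GAAA. Both cores were searched on both strands.
TXNRD1: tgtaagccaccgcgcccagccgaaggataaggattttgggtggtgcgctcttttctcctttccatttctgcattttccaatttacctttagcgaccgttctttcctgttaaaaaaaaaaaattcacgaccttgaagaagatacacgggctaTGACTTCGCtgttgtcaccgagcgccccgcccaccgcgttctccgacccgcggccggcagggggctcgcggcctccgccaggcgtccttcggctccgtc
GCLM: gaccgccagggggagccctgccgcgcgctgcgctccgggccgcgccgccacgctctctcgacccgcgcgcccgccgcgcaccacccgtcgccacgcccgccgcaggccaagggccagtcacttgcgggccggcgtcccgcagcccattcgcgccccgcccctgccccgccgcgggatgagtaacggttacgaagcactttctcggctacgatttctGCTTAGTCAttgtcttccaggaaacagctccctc
IFIT1: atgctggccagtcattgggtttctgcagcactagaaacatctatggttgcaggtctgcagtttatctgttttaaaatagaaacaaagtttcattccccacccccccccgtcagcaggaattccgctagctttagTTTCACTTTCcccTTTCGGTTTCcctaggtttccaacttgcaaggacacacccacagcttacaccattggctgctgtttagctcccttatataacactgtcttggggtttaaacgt
IFI44L: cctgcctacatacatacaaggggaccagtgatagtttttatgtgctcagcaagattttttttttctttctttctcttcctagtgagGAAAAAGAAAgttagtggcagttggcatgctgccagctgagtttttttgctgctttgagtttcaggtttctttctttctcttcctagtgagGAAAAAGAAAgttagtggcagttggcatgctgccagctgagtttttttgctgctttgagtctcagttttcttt
The match began 99 bases before the start in TXNRD1 and 34 bases before it in GCLM. TXNRD1 also had 1 match to the interferon core. IFIT1 had 2 matches, at 116 and 103 bases, and IFI44L had 2, at 164 and 73 bases. The antioxidant core was found in at least 1 promoter of 6 of the 22 NRF2 genes with an entry in the promoter table (27.3%), against 13.2% of all 27305 genes there. The interferon core was found in 15 of the 22 interferon genes with an entry (68.2%), against 3.71% of all genes. No match to one core overlapped a match to the other in the 4 promoters shown. A match is a run of letters, not a measured binding site.

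Values are log2(signal + 16) after quantile normalization, so a level is in log2 units and a difference of 1 is a 2-fold change on that scale, which understates the change of dim genes. Of 19775 genes with a probe set, 12093 had a mean of at least 6.41, the median of all probe sets, and were analysed. No test is possible within ACHN, which had 1 array a side. The difference of ACHN from the other 3 lines was tested with limma, with ACHN assumed to vary like the others. That test called 0 genes higher (0%) and 0 lower (0%) at an adjusted p of 0.05. At an unadjusted p under 0.05 it had 379 genes higher in ACHN (3.13%) and 288 lower (2.38%), in all 5.52% of the genes, and the smallest adjusted p was 0.266. The 0 depended on the lines compared: without CAKI1 the test called 15 genes higher and 4 lower, without CAKI2 7 higher and 1 lower, and without A498 0. Each gene was read from its brightest probe set. Of the 142 genes chosen to be named, a few of which are not printed below, 74 had several probe sets above 6.41. ACHN kept its place among the lines (highest, lowest or within) in all probe sets for 44 of the 74 and not for 30. With all 4 lines, none of the differences given below is therefore shown to be particular to ACHN. The median SE of a difference from the other lines was 0.37, and in simulated data the same fit recovered 16% of genes that differed by 1 log2 unit, 76% of those that differed by 2 and 100% of those that differed by 3 or 4. In the real data, IL1A at -4.10 and ZBED2 at -3.44 from the mean of the other lines were not called. The simulated setting was thus easier than the data, and 0 calls do not show that no gene differs by this much.

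The arrays had median signals of 68.6 to 84.2 units. The 3′ to 5′ signal ratio of ACTB, a measure of RNA integrity and labelling, was 4.22 with A939572 and 2.13 with DMSO in ACHN, a log2 difference of 0.98, against log2 differences of 0.64 in CAKI2, 0.42 in A498 and 0.51 in CAKI1. The same ratio of GAPDH differed by 0.03 in ACHN and by 0.05 to 0.15 in the other lines. The ACHN pair thus had the largest shift in the ACTB ratio. The signal of a 28S ribosomal RNA control probe set was higher with A939572 in each line. Its log2 difference was 2.66 in ACHN, against 1.37 (CAKI2), 2.60 (A498) and 2.80 (CAKI1). The part of these array differences in the results below was not tested. Of 18 renal epithelial markers, 10 lay above 6.41 in ACHN with A939572 and 12 with DMSO. ACHN carried the renal marker PAX8 at 13.02 with A939572 and 12.39 with DMSO and the epithelial genes EPCAM at 12.19 and 12.79 and KRT19 at 13.49 and 13.66. CDH1, the gene of E-cadherin, lay at 6.35 with A939572 and 9.05 with DMSO, so in ACHN it was above 6.41 only without the drug. In the other lines its levels were 4.30 to 6.12, all under 6.41. CDH16 lay at 5.04 and 6.68 in ACHN and CDH6 at 4.26 and 4.58, so several members were near or under 6.41. Of the other cell types, 1 of 9 endothelial, 3 and 4 of 10 leukocyte, 2 and 3 of 11 fibroblast and 3 and 3 of 6 mesothelial markers lay above 6.41 in ACHN with A939572 and with DMSO. The leukocyte marker PTPRC lay at 5.05 and 5.30 and the endothelial marker CDH5 at 6.12 and 4.99, both under that level, while ITGAM at 7.83 and 7.91, CD74 at 7.67 and 8.48 (both leukocytes) and PECAM1 (endothelium) at 7.0 and 7.19 lay above it.

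Most of the ACHN response had the direction of the other lines. In CAKI2, A498 and CAKI1 together, limma called 1224 genes higher with A939572 (10.1%) and 1382 lower (11.4%). Without A498 the counts were 527 and 610. The ACHN arrays entered these calls only through the shared normalization, the filter, the choice of probe set and the mean level used in the variance trend. In ACHN, 1182 of the genes called higher (96.6%) were higher, against 49.4% of all genes. Of those called lower, 1331 (96.3%) were lower in ACHN, against 50.6% of all genes. The median difference of the genes called higher was 0.88 in ACHN, against 0.87 in CAKI2, 0.89 in A498 and 0.72 in CAKI1. That of the genes called lower was -0.81 in ACHN, against -0.84, -0.81 and -0.73. Across the 12093 genes the ACHN difference correlated with the mean of the other 3 at r = 0.697, as a description, since genes are not independent replicates.

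**Figure D1:**
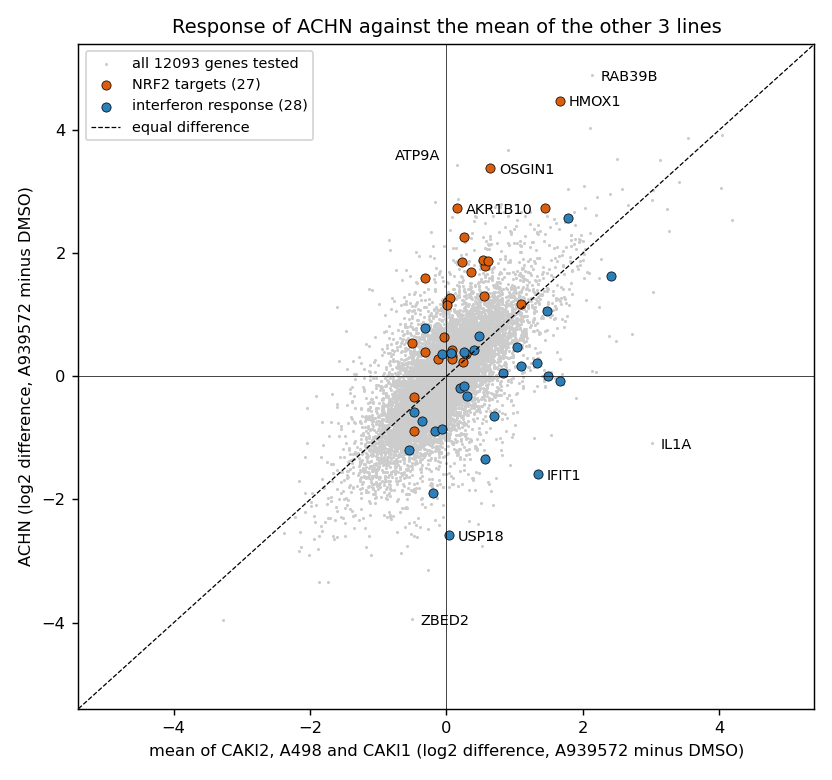
Each point is 1 gene, with the log2 difference A939572 minus DMSO in ACHN on the vertical axis and the mean of the same difference in CAKI2, A498 and CAKI1 on the horizontal axis. Genes of the NRF2 list (orange, 27) lie mostly above the dashed line of equal difference and genes of the interferon list (blue, 28) mostly below it.

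Differences were spread more widely in ACHN than in any other line, with an SD across genes of 0.749, against 0.692 in CAKI2, 0.673 in A498 and 0.639 in CAKI1. At least 2-fold higher with A939572 were 918 genes in ACHN (7.59%), against 773 (6.39%), 770 (6.37%) and 570 (4.71%), and at least 2-fold lower were 977 in ACHN (8.08%), against 754 (6.24%), 700 (5.79%) and 662 (5.47%). With arrays centred on their medians, ACHN had 1206 genes higher and 760 lower, and the median of all genes was 0.12 in ACHN, against -0.01 after quantile normalization, so the balance of directions turned with the scaling. ACHN lay above the range of the other 3 lines by at least 1 log2 unit for 151 genes (1.25%) and below it for 121 (1%). The same counts were 142 and 79 for CAKI2, 128 and 97 for A498 and 105 and 138 for CAKI1, so each line had genes of this kind. Genes at least 1.5-fold higher in ACHN and below 0 in all 3 others numbered 84 (0.695%), and genes at least 1.5-fold lower in ACHN and above 0 in all 3 others numbered 54 (0.447%).

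The largest differences in ACHN were partly shared. RAB39B, a small GTPase of vesicle traffic, had a level of 9.25 with A939572 against 4.36 with DMSO in ACHN, 8.22 against 5.45 in CAKI2, 5.54 against 4.96 in A498 and 8.38 against 5.33 in CAKI1. Its difference of 4.89 in ACHN was the largest of all genes analysed, against 2.78 (CAKI2), 0.58 (A498) and 3.04 (CAKI1), and it rose in the other 3 lines together (limma adjusted p = 0.0197). In DMSO it lay under 6.41 in every line, so the size of its change is uncertain. THBD, thrombomodulin, the cell-surface receptor that turns thrombin towards anticoagulation, had differences of 4.04 in ACHN, against 2.69 (CAKI2), 1.69 (A498) and 1.93 (CAKI1), and it too rose in the other lines (adjusted p = 0.00104, limma). ATF3, a stress-induced transcription factor, and CXCL8, a neutrophil-attracting chemokine, completed the 5 largest together with HMOX1, described with the NRF2 genes. ATF3 had 3.91 in ACHN, against 4.04 (CAKI2), 3.88 (A498) and 4.24 (CAKI1) and CXCL8 had 3.88 in ACHN, against 3.87 (CAKI2), 3.69 (A498) and 3.08 (CAKI1), so ACHN lay within or close to the range of the others for both.

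Among the 5 lowest differences in ACHN, MIR181A2HG, a noncoding host transcript, had -3.95 in ACHN, against -2.52 (CAKI2), -3.44 (A498) and -3.85 (CAKI1) and SLITRK5, a neuronal membrane protein, had -3.34 in ACHN, against -1.35 (CAKI2), -1.90 (A498) and -1.95 (CAKI1), and both fell in the other lines (limma adjusted p = 0.00164 and 0.00523). With A939572, MIR181A2HG lay at 4.57 to 5.42 in every line, under 6.41. SLITRK5 lay under 6.41 with A939572 in ACHN (5.00), CAKI2 (5.53) and A498 (6.38), so the sizes of both falls are uncertain. ID1, an inhibitor of helix-loop-helix transcription factors and a target of BMP signalling, had -3.34 in ACHN, against -2.50 (CAKI2), -2.81 (A498) and -0.29 (CAKI1). ZBED2, a zinc-finger transcription factor, had a level of 7.78 with A939572 against 11.72 with DMSO in ACHN, 6.01 against 6.27 in CAKI2, 4.28 against 4.17 in A498 and 5.72 against 7.10 in CAKI1. Its ACHN difference of -3.95 stood against -0.25 (CAKI2), 0.10 (A498) and -1.38 (CAKI1), and the ACHN DMSO array was the highest of all. THY1, a surface glycoprotein of fibroblasts and other cells, had -3.14 in ACHN, against -1.55 (CAKI2), -0.37 (A498) and 1.11 (CAKI1). Its highest levels were again those of ACHN, 8.53 with A939572 and 11.67 with DMSO. Both genes lay under 6.41 on 5 of the 6 arrays of the other lines and passed the filter through ACHN, so their differences from the other lines compare ACHN with dim signals. For these genes the unadjusted p of the difference from the other lines ran from 0.0017 (ZBED2) to 0.395 (MIR181A2HG), and no adjusted p passed (limma).

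The NRF2 list held 29 genes, of which 27 were analysed and 2 had no probe set with a single symbol. ACHN had the highest difference of the 4 lines for 20 of the 27 and the lowest for 0, against 27.1% and 23.6% of all genes. The 3 regulators NFE2L2, KEAP1 and BACH1 were not among those 20, which leaves 20 of 24 targets. Genes at least 2-fold higher with A939572 numbered 16 in ACHN (7.59% of all genes), against 2 in CAKI2, 2 in A498 and 9 in CAKI1. The median difference was 1.21 in ACHN, against -0.02, -0.04 and 0.49, and over all genes analysed it was -0.01 in ACHN. At an unadjusted p under 0.05, 16 of the 27 were higher in ACHN than in the other lines, beside 3.13% of all genes, and 0 passed after adjustment. The shift was thus widest in ACHN, with CAKI1 next to it.

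HMOX1, heme oxygenase 1, which breaks down heme, had a level of 14.13 with A939572 against 9.65 with DMSO in ACHN, 13.54 against 12.17 in CAKI2, 13.0 against 11.75 in A498 and 13.02 against 10.65 in CAKI1. The ACHN pair held both the highest and the lowest of the 8 arrays. The difference was 4.48 in ACHN (22.3-fold), against 1.37 (CAKI2), 1.25 (A498) and 2.37 (CAKI1), and the ACHN difference exceeded the mean of the others by 2.82 ± 0.42 (SE, limma unadjusted p = 0.000105, adjusted p = 0.266). HMOX1 also rose in the other 3 lines together (adjusted p = 0.00202, limma). OSGIN1, an oxidative stress-induced growth inhibitor, had a level of 8.62 with A939572 against 5.25 with DMSO in ACHN, 8.28 against 8.30 in CAKI2, 8.21 against 7.40 in A498 and 8.05 against 6.93 in CAKI1. Its DMSO level in ACHN was the lowest of the 8 and lay under 6.41, while the 4 treated levels lay within 1 log2 unit of each other, and the differences were 3.38 in ACHN, against -0.02 (CAKI2), 0.82 (A498) and 1.12 (CAKI1).

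The aldo-keto reductases, which reduce aldehydes and ketones, differed in level between the lines before any treatment. AKR1B10 had a level of 10.83 with A939572 against 8.10 with DMSO in ACHN, 15.52 against 15.61 in CAKI2, 15.26 against 15.47 in A498 and 10.14 against 9.36 in CAKI1. CAKI2 and A498 thus carried it close to the top of the measured range with and without the drug, while ACHN and CAKI1 carried little with DMSO. The differences were 2.73 in ACHN, against -0.09 (CAKI2), -0.21 (A498) and 0.77 (CAKI1), and the ACHN difference exceeded the mean of the others by 2.57 ± 0.38 (SE, limma adjusted p = 0.266). The highest level on each array was 15.81, which left little room for a higher level in CAKI2 and A498, so the size of this difference is uncertain. AKR1C1 had 2.26 in ACHN, against -0.02 (CAKI2), -0.43 (A498) and 1.21 (CAKI1). AKR1C2 had 1.85 in ACHN, against 0.04 (CAKI2), -0.59 (A498) and 1.25 (CAKI1). AKR1C3 had 1.59 in ACHN, against 0.05 (CAKI2), -1.24 (A498) and 0.23 (CAKI1). In each of the 3 genes ACHN had the highest difference and A498 the lowest. CAKI2 carried these genes at 15.20 to 15.30 with and without the drug, close to the top level, so a rise there could hardly be read. With DMSO, A498 lay at 14.62 to 14.97 and ACHN at 7.67 to 9.35. All 4 probe sets of AKR1C1 were higher with A939572 in ACHN, by 0.81 to 2.26, but these 3 genes are near-identical in sequence and probe sets can be shared among them, so they are uncertain as separate counts.

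The glutathione and thioredoxin genes followed. TXNRD1, whose promoter is shown above, had a level of 15.23 with A939572 against 13.54 with DMSO in ACHN, 15.39 against 15.27 in CAKI2, 15.33 against 14.89 in A498 and 14.88 against 14.38 in CAKI1. The treated levels were alike in ACHN, CAKI2 and A498, and ACHN had the lowest DMSO level. CAKI2 and A498 again lay close to the top level of the arrays. Its difference was 1.69 in ACHN (3.23-fold), against 0.12 (CAKI2), 0.44 (A498) and 0.50 (CAKI1). It exceeded the mean of the others by 1.34 ± 0.21 (SE, limma unadjusted p = 0.000141, adjusted p = 0.284). GCLM, which with the catalytic subunit GCLC makes the first step of glutathione synthesis, had a level of 14.12 with A939572 against 12.33 with DMSO in ACHN, 14.58 against 14.17 in CAKI2, 14.40 against 14.10 in A498 and 13.12 against 12.12 in CAKI1. The log2 differences of GCLM were 1.80 in ACHN, against 0.41 (CAKI2), 0.30 (A498) and 1.0 (CAKI1). Its 3 probe sets had 1.80 to 2.47 in ACHN. GCLC had 1.30 in ACHN, against 1.01 (CAKI2), 0.06 (A498) and 0.60 (CAKI1). SLC7A11, the cystine importer that feeds glutathione synthesis, had 2.74 in ACHN, against 0.57 (CAKI2), 0.81 (A498) and 2.96 (CAKI1), so that CAKI1 lay slightly above ACHN. SRXN1, which repairs oxidized peroxiredoxins, had 1.89 in ACHN, against -0.17 (CAKI2), 0.18 (A498) and 1.59 (CAKI1), again with ACHN and CAKI1 above the other lines.

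Other enzymes and 1 exporter on the list were also higher in ACHN than in the other lines. UGDH, which makes the sugar donor for glucuronidation, had 1.28 in ACHN, against -0.19 to 0.49 in the other lines. TALDO1 of the pentose phosphate pathway had 1.21, against -0.26 to 0.38. The iron-binding nuclear protein gene PIR had 1.16, against -0.46 to 0.39. In these 3 genes the other lines lay on both sides of 0. ABCC2, an exporter of conjugates, had 1.88, against 0.24 to 1.07, but its level in ACHN was only 6.19 with A939572 and 4.32 with DMSO, under 6.41 on both arrays. NQO1, the quinone reductase used most often as an NRF2 readout, had 0.54 in ACHN, against -0.65 (CAKI2), -0.88 (A498) and 0.03 (CAKI1), with 0.54 to 0.61 in ACHN over its 3 probe sets. GSR, glutathione reductase, had 0.40, against -0.60 to -0.02. The ferritin light chain gene FTL had 0.32, against -0.04 to 0.21. Not every member followed. PGD, of the pentose phosphate pathway, had -0.88 in ACHN, against -0.90 (CAKI2), -0.76 (A498) and 0.21 (CAKI1), and in this gene CAKI1 stood apart. TRIM16, which is not on the list and was chosen after its values were seen, had 2.24 in ACHN, against 0.10 (CAKI2), 0.24 (A498) and 1.56 (CAKI1).

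The regulators were closer to the other lines. NFE2L2 itself had 0.36 in ACHN, against 0.36 (CAKI2), 0.45 (A498) and 0.03 (CAKI1), and its 2 probe sets had opposite signs in ACHN, at -0.44 and 0.36. KEAP1 had 0.29 in ACHN, against -0.36 (CAKI2), 0.13 (A498) and 0.47 (CAKI1). BACH1, a repressor that competes with NRF2 for the same motif, had 1.18 in ACHN, against 0.45 (CAKI2), 1.61 (A498) and 1.21 (CAKI1) and rose in the other 3 lines together (limma adjusted p = 0.00998). The ACHN difference exceeded the mean of the others by only 0.08 for NFE2L2, 0.21 for KEAP1 and 0.09 for BACH1.

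The levels behind these differences were lower in ACHN before treatment. With DMSO, ACHN had the lowest level of the 4 lines for 20 of the 27 NRF2 genes, against 23.4% of all genes, and with A939572 for 11 of the 27, against 21.8%. The median level of the 27 genes was 12.15 with A939572 and 10.81 with DMSO in ACHN, 13.99 and 13.68 in CAKI2, 13.28 and 13.60 in A498 and 12.64 and 11.63 in CAKI1. The ordering of the differences was thus the reverse of the ordering of the DMSO levels, except between CAKI2 and A498. The difference and the DMSO level share the ACHN DMSO array, so they are not independent measurements.

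**Figure D2:**
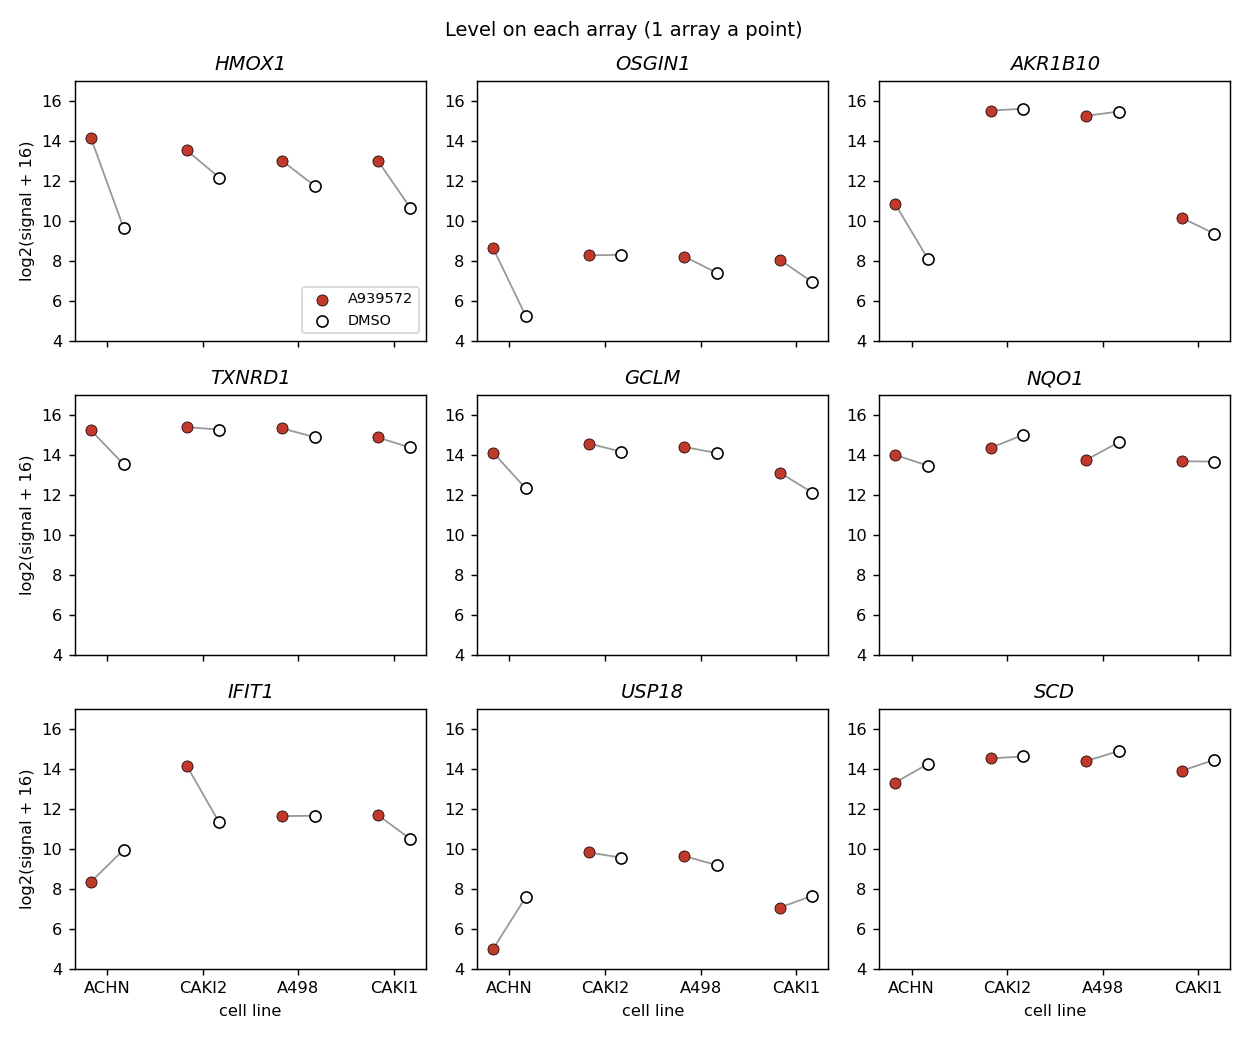
Level of 9 genes on each of the 8 arrays, in log2(signal + 16), with A939572 (filled) left of DMSO (open) in each line and a line joining the pair. HMOX1, OSGIN1, AKR1B10, TXNRD1 and GCLM have their widest step in ACHN, and IFIT1 and USP18 are lower with A939572 in ACHN.

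**Figure D3:**
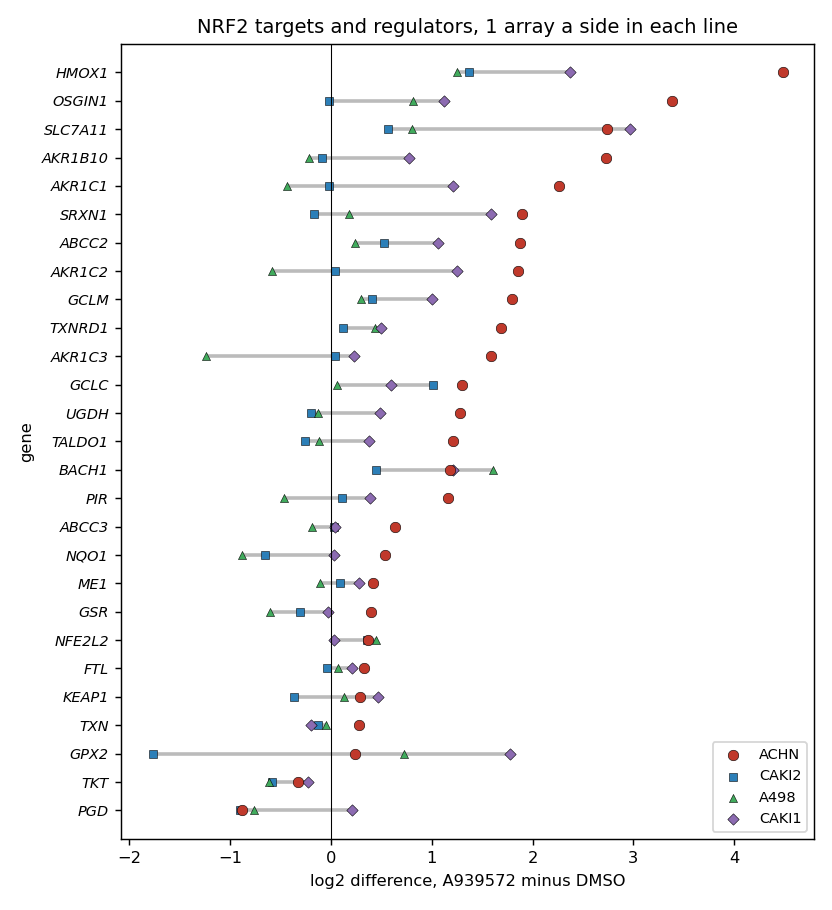
Log2 difference, A939572 minus DMSO, of the 27 NRF2 genes in each line, sorted by ACHN, with the grey bar spanning CAKI2, A498 and CAKI1. ACHN (red circles) lies to the right of the bar for 20 genes, from HMOX1 at 4.48 against at most 2.37 to TXN near 0.

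The interferon list behaved in the opposite way. Of its 34 genes, 28 were analysed, 4 lay below the filter and 2 had no probe set. ACHN had the lowest difference of the 4 lines for 16 of the 28 and the highest for 4, against 23.6% and 27.1% of all genes. The median was -0.03 in ACHN, against 0.34 in CAKI2, 0.37 in A498 and 0.22 in CAKI1. With arrays centred on their medians it was 0.09 in ACHN, beside 0.12 for all genes. At least 2-fold higher were 3 of the 28 genes in ACHN (7.59% of all genes), against 10 in CAKI2, 3 in A498 and 9 in CAKI1. ACHN thus had as many as A498. At least 2-fold lower were 5 in ACHN (8.08% of all genes), against 0 in each other line. Compared with the mean of the others, 7 were lower in ACHN and 1 was higher at an unadjusted p under 0.05, beside 2.38% and 3.13% of all genes, and 0 passed after adjustment (limma).

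IFIT1, which binds foreign RNA and has 2 of the interferon motifs in the promoter shown, had a level of 8.36 with A939572 against 9.95 with DMSO in ACHN, 14.18 against 11.33 in CAKI2, 11.64 against 11.66 in A498 and 11.70 against 10.50 in CAKI1. Its difference was -1.59 in ACHN, against 2.85 (CAKI2), -0.02 (A498) and 1.20 (CAKI1), so ACHN lay below all 3 and on the other side of 0 from CAKI2 and CAKI1. The ACHN difference was below their mean by -2.93 ± 0.85 (log2, SE, limma unadjusted p = 0.00751, adjusted p = 0.663). USP18, which removes ISG15 from proteins and dampens interferon signalling, had a level of 5.0 with A939572 against 7.58 with DMSO in ACHN, 9.82 against 9.57 in CAKI2, 9.64 against 9.19 in A498 and 7.07 against 7.65 in CAKI1. The log2 differences of USP18 were -2.58 in ACHN, against 0.26 (CAKI2), 0.45 (A498) and -0.59 (CAKI1). Its treated level in ACHN was the lowest of the 8 arrays and lay under 6.41. IFI44L had a level of 7.20 with A939572 against 9.10 with DMSO in ACHN, 6.42 against 6.61 in CAKI2, 12.25 against 12.37 in A498 and 8.04 against 8.32 in CAKI1. The log2 differences of IFI44L were -1.90 in ACHN, against -0.18 (CAKI2), -0.12 (A498) and -0.28 (CAKI1). The other 3 lines lay close to each other and ACHN stood below them.

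IFIT3 and OASL, antiviral genes, rose in the other 3 lines together (limma adjusted p = 0.0116 and 0.00961), while their ACHN differences were -0.07 and 0.00. IFIT3 had 2.48 (CAKI2), 0.35 (A498) and 2.16 (CAKI1). OASL had 2.26 (CAKI2), 0.55 (A498) and 1.65 (CAKI1). Both ACHN values lay close to 0, and for both genes a second probe set had the opposite sign in ACHN. MX1, an antiviral GTPase, had 0.17 in ACHN, against 0.42 to 1.56, and ISG15, a ubiquitin-like modifier, had 0.05, against -0.07 to 1.73. OAS1, OAS3 and IFI6 had -0.85, -1.20 and -0.88 in ACHN, against -0.71 to 0.34, -0.90 to -0.01 and -0.27 to -0.05 in the others. XAF1 had -1.34 in ACHN, against 0.47 (CAKI2), 1.26 (A498) and -0.03 (CAKI1), but only 1 of its 3 probe sets had that sign in ACHN, and its ACHN levels lay under 6.41. Some members went with the other lines. ISG20, an exonuclease, had 2.57 in ACHN, against 2.0 (CAKI2), 1.13 (A498) and 2.21 (CAKI1). IFIH1, the RNA sensor MDA5, had 1.06 in ACHN, against 2.27 (CAKI2), 0.85 (A498) and 1.33 (CAKI1) in its brightest probe set, while 1 of its 3 probe sets had the opposite sign in ACHN. IFIT2 had 1.64 in ACHN, against 3.49 (CAKI2), 0.72 (A498) and 3.05 (CAKI1). ISG20, IFIH1 and IFIT2 all rose in the other 3 lines (adjusted p = 0.00239, 0.00558 and 0.00707, limma). BST2 was higher in ACHN, at 0.78 against -0.67 to 0.00, with ACHN levels under 6.41.

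The median difference of NF-kB targets and cytokines was above 0 in each line and lowest in ACHN. Of 35 genes, 27 were analysed, of which 21 were positive and 6 negative in ACHN, against 21 and 6 in CAKI2, 23 and 4 in A498 and 22 and 5 in CAKI1. The median was 0.70 in ACHN, against 1.03 in CAKI2, 0.77 in A498 and 1.01 in CAKI1, and ACHN had the lowest difference for 11 and the highest for 6, against 23.6% and 27.1% of all genes. It lay below the range of the others by at least 1 log2 unit for 5 of the 27, against 1% of all genes. That count includes IL1A, CCL20 and CXCL5, whose ACHN levels lay under 6.41, so it rests in part on dim signals. IL1A, a proinflammatory cytokine, had a level of 4.22 with A939572 against 5.30 with DMSO in ACHN, 9.0 against 4.43 in CAKI2, 7.05 against 4.46 in A498 and 10.62 against 8.73 in CAKI1. The log2 differences of IL1A were -1.08 in ACHN, against 4.58 (CAKI2), 2.59 (A498) and 1.89 (CAKI1). Both ACHN levels lay under 6.41, so the ACHN difference is one between dim signals, and in its second probe set ACHN and CAKI2 both had -0.06. CCL20, a lymphocyte chemokine, had 0.70 in ACHN, against 1.87 (CAKI2), 2.69 (A498) and 3.59 (CAKI1), and it too was under 6.41 in ACHN at 5.34 with A939572 and 4.64 with DMSO.

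PTGS2, the prostaglandin-making enzyme cyclooxygenase 2, had a level of 8.26 with A939572 against 6.90 with DMSO in ACHN, 9.66 against 6.42 in CAKI2, 9.92 against 7.38 in A498 and 10.85 against 7.54 in CAKI1. The log2 differences of PTGS2 were 1.37 in ACHN, against 3.24 (CAKI2), 2.53 (A498) and 3.30 (CAKI1). CXCL2, a neutrophil chemokine whose probe sets can match its paralogs, had 2.53 in ACHN, against 5.0 (CAKI2), 4.89 (A498) and 2.68 (CAKI1), and in this gene ACHN stood beside CAKI1. CCL2, which attracts monocytes, had -1.20 in ACHN, against 2.28 (CAKI2), 0.12 (A498) and -0.01 (CAKI1). The neutrophil chemokine CXCL5 had -0.28 in ACHN, against 1.30 (CAKI2), 0.77 (A498) and 1.03 (CAKI1). The ACHN levels of CXCL5 lay under 6.41. ICAM1 had -1.28 in ACHN, against -0.90 (CAKI2), 0.75 (A498) and 0.61 (CAKI1), and its 3 probe sets disagreed in sign in ACHN. Other members were at least 4-fold higher in ACHN too and rose in the other lines. IL6 had 2.37 in ACHN, against 3.37 (CAKI2), 3.90 (A498) and 2.52 (CAKI1) (limma adjusted p in the other 3 lines 0.000253). CXCL3 had 2.72 in ACHN, against 2.86 (CAKI2), 3.48 (A498) and 3.35 (CAKI1) (adjusted p = 0.000138, limma). TNFAIP3, an NF-kB feedback inhibitor, had 2.03 in ACHN, against 1.76 (CAKI2), 1.55 (A498) and 1.83 (CAKI1) (adjusted p = 0.000849, limma). NFKB2 and the macrophage growth factor CSF1 were higher in ACHN, at 1.46 and 0.83, against -0.31 to 0.71 and -0.56 to 0.39. The second probe set of NFKB2 had 0.93 in ACHN, within the range of the others.

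**Figure D4:**
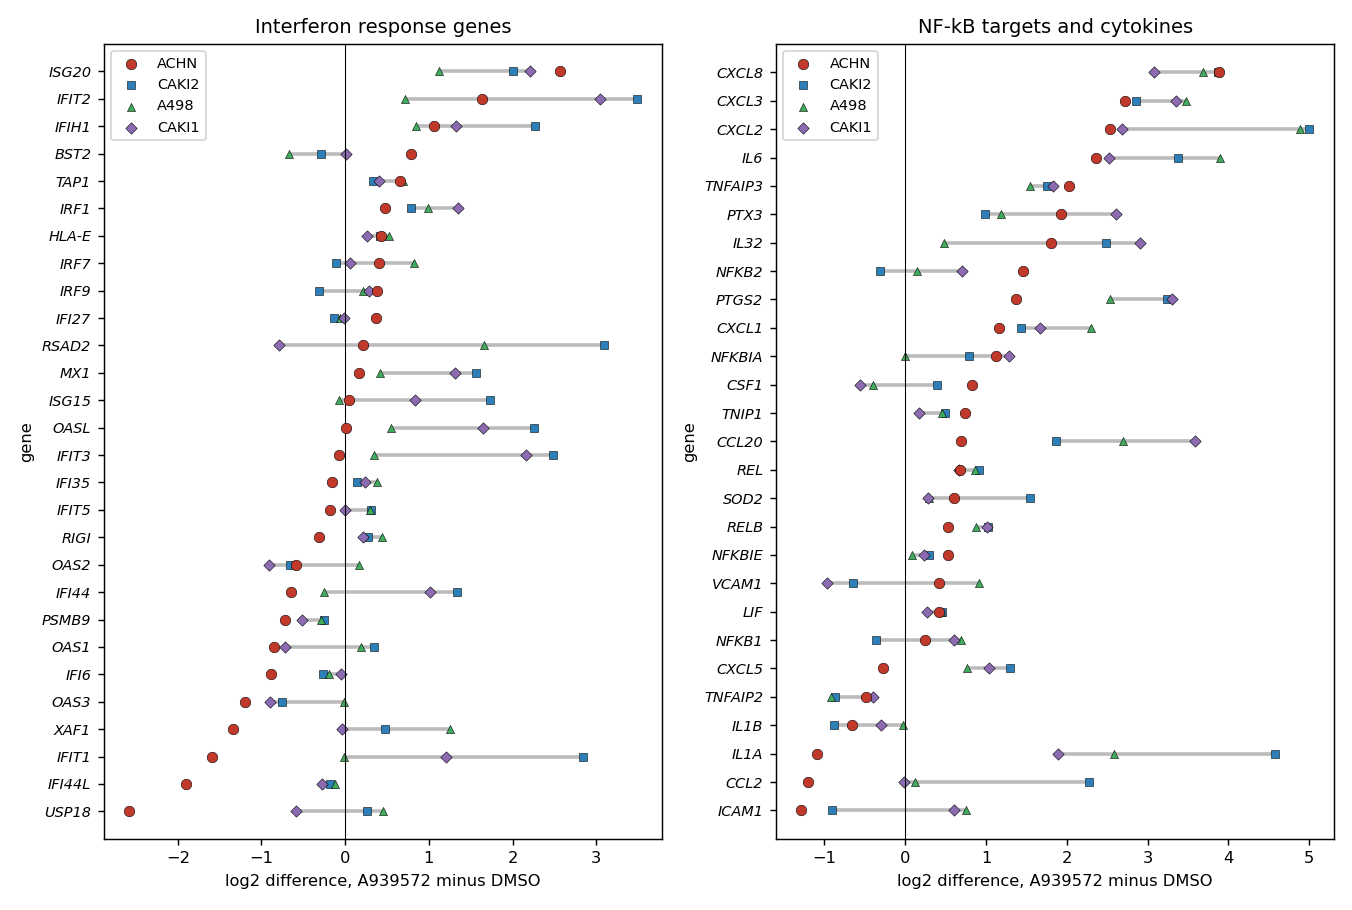
Log2 difference, A939572 minus DMSO, in each line for the 28 interferon genes (left) and the 27 NF-kB and cytokine genes (right), sorted by ACHN, with grey bars spanning CAKI2, A498 and CAKI1. ACHN (red circles) lies left of the bar for 16 interferon genes and 11 NF-kB genes.

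The desaturase genes and the sterol pathway were read next, since the drug acts on this metabolism. SCD, the gene of the inhibited enzyme, had a level of 13.32 with A939572 against 14.26 with DMSO in ACHN, 14.53 against 14.63 in CAKI2, 14.41 against 14.90 in A498 and 13.92 against 14.46 in CAKI1. The difference was -0.93 in ACHN, against -0.10 (CAKI2), -0.49 (A498) and -0.55 (CAKI1), and lay below the mean of the others by -0.55 ± 0.23 (log2, SE, limma unadjusted p = 0.0421, adjusted p = 0.897). Its 4 probe sets ranged from -1.22 to -0.10 in ACHN. Where ACHN had -0.10, CAKI1 had -0.51, so ACHN was not lowest in that probe set. SCD5, the second human desaturase gene, had 0.42 in ACHN, against 0.63 (CAKI2), -0.03 (A498) and 0.23 (CAKI1), with probe sets of opposite sign. ELOVL6, which elongates palmitate before desaturation, had -1.76 in ACHN, against -0.32 (CAKI2), -0.90 (A498) and -1.28 (CAKI1). All 3 of its probe sets were lower with A939572 in ACHN, at -1.89 to -1.61. Where ACHN had -1.61, A498 had -1.72, so ACHN was not lowest in that probe set.

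Most cholesterol synthesis and uptake genes, which SREBP2 drives, had negative differences in each line. Of 25 genes 18 were analysed. Of these 17 were negative in ACHN, against 16 in CAKI2, 15 in A498 and 15 in CAKI1, and beside 50.6% of all genes in ACHN. ACHN had the lowest difference for 9, against 23.6% of all genes, and for 6 with median centring. At least 2-fold lower were 9 in ACHN (8.08% of all genes), against 3 in CAKI2, 4 in A498 and 5 in CAKI1, and the medians were -0.88 in ACHN, against -0.52, -0.61 and -0.72. EBP, a sterol isomerase, had -1.83 in ACHN, against -1.75 (CAKI2), -1.55 (A498) and -1.50 (CAKI1). ACAT2, an acetyl-CoA thiolase, had -1.64 in ACHN, against -1.18 (CAKI2), -0.93 (A498) and -1.40 (CAKI1). SQLE, squalene epoxidase, had -1.13 in ACHN, against -0.48 (CAKI2), -0.66 (A498) and -0.92 (CAKI1). Each of these 3 genes fell in the other 3 lines (limma adjusted p = 0.000849, 0.0021 and 0.00948). TM7SF2, the member with the largest difference from the other lines, had -1.23 in ACHN, against -0.93 (CAKI2), 0.25 (A498) and -0.60 (CAKI1). INSIG1, which holds SREBPs in the endoplasmic reticulum, had -1.20 in ACHN, against -0.10 (CAKI2), -1.13 (A498) and -0.74 (CAKI1). HMGCS1, at the head of the pathway, had -1.14 in ACHN, against -0.12 (CAKI2), -0.78 (A498) and -1.21 (CAKI1). Of the 18, 0 differed from the other lines at an unadjusted p under 0.05. ABCA1, the LXR-driven cholesterol exporter, had 1.92 in ACHN, against 1.07 (CAKI2), 1.26 (A498) and 1.65 (CAKI1). FABP3, a fatty acid carrier, had -1.91 in ACHN, against -0.51 (CAKI2), -1.04 (A498) and -0.24 (CAKI1), but it lay under 6.41 on all 6 arrays of the other lines, where a lower level could hardly be read. DGAT2, which makes triglyceride, had 0.26 in ACHN, against -1.62 (CAKI2), -1.10 (A498) and -1.38 (CAKI1) with ACHN levels of 6.88 with A939572 and 6.62 with DMSO, near the filter.

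For the unfolded protein response the ACHN medians lay within the range of the other lines. The 31 ATF6 and XBP1 targets had a median of 0.98 in ACHN, against 1.49, 1.08 and 0.88 in CAKI2, A498 and CAKI1, and the 23 ATF4 and CHOP targets had 1.13, against 1.46, 0.85 and 1.02. DNAJB9, a chaperone partner, had 3.51 in ACHN, against 3.27 (CAKI2), 3.42 (A498) and 2.70 (CAKI1). DDIT3, the gene of CHOP, had 2.86 in ACHN, against 3.85 (CAKI2), 2.27 (A498) and 2.94 (CAKI1). XBP1, the factor that IRE1 activates, had 1.48 in ACHN, against 1.52 (CAKI2), 0.75 (A498) and 0.63 (CAKI1). These 3 genes rose in the other 3 lines (limma adjusted p = 6.49e-05, 0.000696 and 0.00908). HERPUD1 of endoplasmic reticulum-associated degradation had 1.61 in ACHN, against 2.82 (CAKI2), 1.75 (A498) and 1.48 (CAKI1). SEC24D, a vesicle coat protein, had 1.87 in ACHN, against 1.81 (CAKI2), 1.25 (A498) and 0.16 (CAKI1). Within the ATF4 list members diverged. STC2, a secreted stress hormone, was 3.05 in ACHN against 1.03 to 2.66, the transcription factor CEBPB was 2.61 against 0.64 to 2.0 and TRIB3 was 1.91 against 0.89 to 1.54, so ACHN was highest for all 3 in the brightest probe sets. The second probe set of STC2 had 1.22 in ACHN, against 1.39 (CAKI2) and 1.86 (CAKI1), and that of TRIB3 had 1.26, against 1.58 (CAKI1), so ACHN was not highest there. CHAC1, which degrades glutathione, had 0.09 in ACHN, against 3.0 (CAKI2), 0.17 (A498) and 3.23 (CAKI1), with a level of 8.07 with A939572 against 7.98 with DMSO in ACHN, 8.49 against 5.50 in CAKI2, 8.25 against 8.08 in A498 and 8.21 against 4.98 in CAKI1. In CHAC1, ACHN and A498 were high with DMSO and differed little with A939572, while CAKI2 and CAKI1 were low with DMSO. CTH, the cystathionine lyase that makes cysteine, had 0.57 in ACHN, against 3.61 (CAKI2), 2.37 (A498) and 1.49 (CAKI1) and was lowest in ACHN.

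Most DNA replication and mitosis genes had negative differences in each line. All 39 replication and G1/S genes analysed were negative in ACHN, against 37 in CAKI2, 36 in A498 and 37 in CAKI1, and beside 50.6% of all genes in ACHN. At least 2-fold lower were 30 in ACHN (8.08% of all genes), against 29 in CAKI2, 24 in A498 and 14 in CAKI1. The medians were -1.51 in ACHN, against -1.46, -1.09 and -0.88. ACHN had the lowest difference for 26 of the 39, against 23.6% of all genes, and for 17 when arrays were centred on their medians in place of quantile normalization, against 18.5% of all genes there. All 41 mitosis genes analysed were negative in ACHN too, against 40 in CAKI2, 38 in A498 and 41 in CAKI1, with a median of -1.24, against -1.33, -0.65 and -0.87, so CAKI2 was lowest there. CDT1, which licenses replication origins, had -2.61 in ACHN, against -1.65 (CAKI2), -1.87 (A498) and -1.30 (CAKI1) in its brightest probe set. Its second probe set had -0.23 in ACHN, against -0.53, -0.31 and -0.41, so there ACHN was the least negative. MCM4 of the replicative helicase had -2.64 in ACHN, against -2.21 (CAKI2), -2.0 (A498) and -1.63 (CAKI1). RRM2 of ribonucleotide reductase had -2.64 in ACHN, against -2.56 (CAKI2), -1.66 (A498) and -0.71 (CAKI1). The mitotic kinase CDK1 had -2.16 in ACHN, against -1.70 (CAKI2), -0.91 (A498) and -1.17 (CAKI1). Each of these 4 fell in the other lines (limma adjusted p = 0.00143, 0.000765, 0.00622 and 0.00219). CDC6, also a licensing factor, went against the rest of the list in the other lines, with -0.38 in ACHN, against 0.68 (CAKI2), 1.44 (A498) and 0.74 (CAKI1), and it rose there (adjusted p = 0.00845, limma). KIF20B and KIF11, mitotic kinesins, had -1.55 and -2.33 in ACHN, against -0.72 to 0.28 and -2.12 to -0.82. CDKN1C, a cyclin-dependent kinase inhibitor, had 0.91 in ACHN, against -0.68 (CAKI2), -0.15 (A498) and -0.48 (CAKI1) in its brightest probe set. ACHN was highest in only 2 of its 4 probe sets, over which the mean of the others ran from -0.44 to 0.46.

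Autophagy and lysosome genes, driven in part by TFE3 and its relatives, were higher in ACHN for a part of the list. Of 27 analysed, 8 were at least 2-fold higher in ACHN (7.59% of all genes), against 3 in CAKI2, 1 in A498 and 1 in CAKI1. ACHN had the highest difference for 12, against 27.1% of all genes, and for 18 with median centring, against 33.3% of all genes there. MCOLN1, the lysosomal calcium channel, had 1.88 in ACHN, against -0.06 (CAKI2), 0.55 (A498) and -0.04 (CAKI1). WIPI1, which marks forming autophagosomes, had 2.36 in ACHN, against 1.78 (CAKI2), 1.73 (A498) and 0.61 (CAKI1). UVRAG, of the same process, had 1.45 in ACHN, against 0.68 (CAKI2), 0.64 (A498) and 0.41 (CAKI1). TFE3 had 1.44 in ACHN, against 0.60 (CAKI2), 0.97 (A498) and 0.80 (CAKI1), and ACHN was highest in all 4 genes. SQSTM1, the autophagy receptor p62, which is also a known NRF2 target, had 1.57 in ACHN, against 0.27 (CAKI2), 0.37 (A498) and 0.89 (CAKI1). Only 3 of its 5 probe sets were higher with A939572 in ACHN, though ACHN had the highest difference of the lines in all 5. The median of the 27 was 0.50 in ACHN, against 0.05, 0.11 and 0.40.

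**Figure D5:**
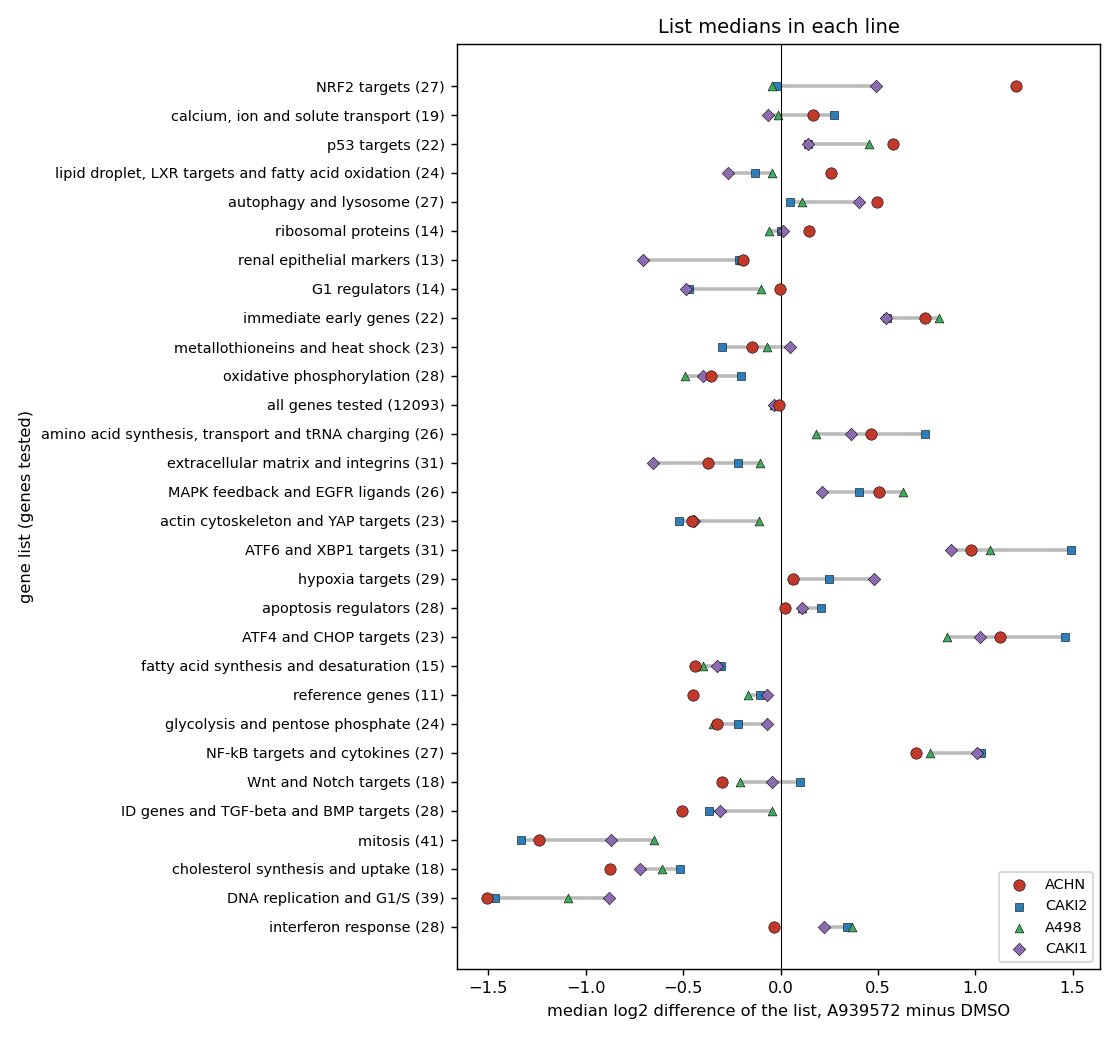
Median log2 difference, A939572 minus DMSO, of each gene list with at least 10 genes analysed in each line, with the number of genes in parentheses, grey bars spanning CAKI2, A498 and CAKI1, and lists sorted by the median ACHN difference from the mean of the others. The NRF2 list stands at 1.21 in ACHN, against at most 0.49 in another line, and the interferon list at -0.03, against at least 0.22.

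Most of the following members of other lists were named by rule, as the 1 with the largest difference from the other lines in each list. PHLDA1, a feedback gene of MAP kinase signalling, had a level of 13.87 with A939572 against 11.52 with DMSO in ACHN, 14.44 against 13.74 in CAKI2, 13.76 against 13.11 in A498 and 13.56 against 12.61 in CAKI1. The log2 differences of PHLDA1 were 2.35 in ACHN, against 0.70 (CAKI2), 0.65 (A498) and 0.95 (CAKI1). It exceeded the mean of the others by 1.58 ± 0.23 (SE, limma unadjusted p = 9.59e-05, adjusted p = 0.266), and its 6 probe sets had 1.36 to 2.35 in ACHN. BTG1, an antiproliferative gene, had 2.11 in ACHN, against 0.87 (CAKI2), 0.85 (A498) and 1.58 (CAKI1). TP53INP1, a p53 target, had 1.52 in ACHN, against 0.06 (CAKI2), 0.86 (A498) and 0.10 (CAKI1). BIK, a proapoptotic BCL2 relative, had 0.80 in ACHN, against -0.23 (CAKI2), 0.34 (A498) and -0.85 (CAKI1), so ACHN was highest for these genes as well. NDRG1, a hypoxia target, had 2.27 in ACHN, against 1.18 (CAKI2), -0.23 (A498) and 0.96 (CAKI1). The glycolytic gene ALDOC had 0.65 in ACHN, against -1.20 (CAKI2), -1.15 (A498) and -0.79 (CAKI1) with ACHN levels under 6.41. The taurine transporter SLC6A6 had 1.66 in ACHN, against 0.38 (CAKI2), -0.13 (A498) and -0.58 (CAKI1). Here the other lines lay on both sides of 0. The YAP target ANKRD1 had 2.67 in ACHN, against -0.87 (CAKI2), 2.22 (A498) and 1.20 (CAKI1). The basement membrane collagen COL4A1 had -2.20 in ACHN, against -0.23 (CAKI2), -1.44 (A498) and -0.84 (CAKI1). DKK1, a secreted Wnt inhibitor, had 2.84 in ACHN, against -0.70 (CAKI2), -1.94 (A498) and 2.13 (CAKI1), so CAKI1 was close to ACHN and the 2 remaining lines went the other way. The A498 levels of DKK1 were 4.17 with A939572 and 6.11 with DMSO, both under 6.41. ID4 had 1.76 in ACHN, against -0.69 (CAKI2), 0.28 (A498) and -0.03 (CAKI1), opposite in sign to ID1 in ACHN. Its ACHN level was 7.37 with A939572 and 5.61 with DMSO, the latter under 6.41, so the size of its change is uncertain. SMAD6, a BMP feedback inhibitor chosen after its values were seen, had -2.26 in ACHN, against -1.51 (CAKI2), -1.63 (A498) and -0.91 (CAKI1).

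CRYAB, a small heat shock protein, had -0.87 in ACHN, against -0.68 (CAKI2), -0.42 (A498) and 1.51 (CAKI1). ANPEP, an aminopeptidase of the proximal tubule, had 1.29 in ACHN, against -0.78 (CAKI2), -0.39 (A498) and -0.69 (CAKI1) with ACHN levels under 6.41. Among the markers of other cell types, LRRN4 (mesothelium) had -2.13 in ACHN, against -0.93 to -0.09. PECAM1 (endothelium) had -0.19, against -0.50 to -0.03, and ITGAM (leukocytes) had -0.08, against -0.28 to 0.66. SDHA, which served as a reference gene and as a respiratory chain gene, had -0.93 in ACHN, against -0.26 (CAKI2), -0.45 (A498) and -0.07 (CAKI1). The 11 reference genes had a median of -0.45 in ACHN, against -0.11, -0.16 and -0.07, and the 14 ribosomal protein genes had 0.15 in ACHN, against 0.00, -0.06 and 0.01, with RPL3 at 0.22 against -0.10 to 0.00. After quantile normalization the medians of housekeeping lists thus lay up to 0.45 from 0 in ACHN, in opposite directions. Without further normalization the ribosomal median was 0.13 in ACHN, against -0.29 (CAKI2), -0.28 (A498) and 0.23 (CAKI1), so CAKI1 was highest. Whether the housekeeping medians and the shift of the ACTB ratio are connected was not tested.

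A last group of genes was on no list and was chosen after its values were seen, for large differences from the other lines. ATP9A, a phospholipid flippase of endosomes, had a level of 9.95 with A939572 against 6.51 with DMSO in ACHN, 11.84 against 12.22 in CAKI2, 8.15 against 7.88 in A498 and 11.72 against 11.16 in CAKI1. The differences were 3.43 in ACHN, against -0.38 (CAKI2), 0.27 (A498) and 0.56 (CAKI1), and the ACHN difference exceeded the mean of the others by 3.28 ± 0.41 (SE, limma unadjusted p = 2.59e-05, adjusted p = 0.266), with the smallest p of the 12093 genes. PDE7B, a cyclic AMP phosphodiesterase, had a level of 10.50 with A939572 against 7.63 with DMSO in ACHN, 6.01 against 5.94 in CAKI2, 6.27 against 6.22 in A498 and 5.98 against 5.58 in CAKI1, and ACHN was the only line with levels above 6.41. BMAL1, a core clock transcription factor, had 2.75 in ACHN, against 0.16 (CAKI2), 1.25 (A498) and 0.72 (CAKI1), with 2.44 and 2.75 in ACHN in its 2 probe sets. MAP2, a microtubule-associated protein of neurons, had 3.67 in ACHN, against 0.04 (CAKI2), 0.30 (A498) and 2.38 (CAKI1), so CAKI1 came next. The transcription repressor BCL6 had 1.87 in ACHN, against 0.59 (CAKI2), 0.10 (A498) and 0.32 (CAKI1).

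Lower in ACHN was DPP4, a peptidase of the cell surface, with -1.71 in ACHN, against 0.28 (CAKI2), 0.28 (A498) and 1.26 (CAKI1). Its 3 probe sets had -1.71 to -1.31 in ACHN. IGFBP3, an insulin-like growth factor binding protein, had -1.58 in ACHN, against 0.38 (CAKI2), -0.12 (A498) and 0.67 (CAKI1), so ACHN alone was at least 2-fold lower. CCDC80, a secreted matrix protein, had -2.49 in ACHN, against 0.05 (CAKI2), -0.27 (A498) and -0.61 (CAKI1), with -2.49 to -2.11 in its 3 probe sets. SEMA6A, an axon guidance molecule, had -2.59 in ACHN, against -0.61 (CAKI2), -0.07 (A498) and -0.73 (CAKI1). Its second probe set had -2.11 in ACHN, against -0.55 (CAKI2), 1.46 (A498) and -1.87 (CAKI1), so CAKI1 was close to ACHN there. PIK3R3, a regulatory subunit of PI3 kinase, had -1.65 in ACHN, against 0.25 (CAKI2), 0.39 (A498) and 0.54 (CAKI1). HACD4, an enzyme of very long chain fatty acid elongation, had 1.13 in ACHN, against -1.30 (CAKI2), -1.79 (A498) and -1.74 (CAKI1) and fell in the other 3 lines (limma adjusted p = 0.00212), but its ACHN levels were 5.36 with A939572 and 4.23 with DMSO, both under 6.41.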

How the data were processed

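The deposited values were intensity signals on a linear scale, 1 per probe set, from biotin-labelled cRNA made from total RNA, per the labels' protocols. The program that made them is not given in the sources used here. On every array the mean of the middle signals, with the highest and lowest 2% left out, was 500.07, which shows a scaling by the authors. From the deposited signals, log2(signal + 16) was computed, 62 control probe sets were left out of 54675, and the arrays were quantile normalized. Of the rest, 41091 had 1 gene symbol, 1801 several and 11721 none in the platform annotation, and 41037 were matched by Entrez ID to GRCh38.p14 RefSeq symbols. Each gene was read from its brightest probe set.

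The fit used limma 3.58.1 in R 4.3.3 (lmFit, eBayes with a trend, 2-sided, Benjamini-Hochberg adjustment) on all 8 arrays, with line as a block, treatment, and treatment within ACHN. Each line is 1 pair of arrays by the series' design, and no separate cultures are stated, so p-values measure only the spread between lines. An exact test of 1 line against 3 cannot go below 0.25. The number of arrays limits the precision. In simulated data of 12093 genes, with 50 changed by each of 4 sizes, 161 were called, 15 of them falsely.

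Genes were named by rule: SCD and SCD5, the 5 largest differences each way in ACHN, and the member of each list with the largest difference from the other lines. The rule's parts on genes past the threshold named none. The other genes named were chosen after their values were seen. Members and gene lists were chosen with earlier results of these data known. The alternatives tried were the offset, normalization, filter, probe set choice, variance trend, line block and leaving out each other line.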

Additional observations from a re-analysis of the deposited data

Results flagged for a closer look

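Among the 142 genes chosen to be named, 5 had 1 line far from the other 3. The gap to the nearest line then took up most of the range over the 4 lines (Dixon's criterion). Chance flags about 1 in 20 such genes, and over all 12093 genes analysed 611 (5.05%) met the same criterion, so the count among the named genes is no larger than that share. In 4 of the 5 the line apart was ACHN. IFI44L was lowest in ACHN at -1.90 (log2 difference, A939572 minus DMSO). PIK3R3 was lowest in ACHN at -1.65. PDE7B was highest in ACHN at 2.88, and ACHN was also the only line in which its level lay above 6.41. HACD4 was highest in ACHN at 1.13, with both ACHN levels under 6.41. PGD was highest in CAKI1 at 0.21, against -0.88 in ACHN.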

How the results depend on the processing

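Of the 142 genes chosen, 131 kept the sign of their ACHN difference from the other lines in each of the 13 alternatives that gave a value. The test of ACHN against the other lines called 0 genes in every alternative that kept all 4 lines. Leaving out other lines gave 0 to 15 genes higher and 0 to 4 lower. Without CAKI1, limma called 15 higher (SLC7A11, AKR1C1, AKR1C2, AKR1B10, TXNRD1, TALDO1, GCLM, SRXN1, HMOX1, TRIM16, PHLDA1, MAP2, NRCAM, ATP9A and ALOX5AP) and 4 lower (CXCL2, DPP4, LBH and USP18). Without CAKI2 it called 7 higher (CEBPB, AKR1B10, SLC6A6, HMOX1, THBD, ATP9A and HACD4) and 1 lower (DPP4), and without A498 it called 0. Residual spread then came from 2 lines.

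Without the line as a block (no pairing), the test called 0 genes higher and 0 lower, with 41 at an unadjusted p under 0.05, and the response of the other 3 lines called 1 higher and 0 lower. That response called 634 higher and 769 lower without the variance trend, 898 lower without probe sets ending in _x_at, _s_at or _a_at, and 527 (without A498) to 1133 higher and 610 (without A498) to 1134 lower when lines were left out. Genes above and below the range of the other lines numbered 63 and 56 at offset 64, 515 and 491 without the filter, 35 and 21 with the stricter one, 92 above with the mean of probe sets, and 230 to 294 and 199 to 235 with a line left out. ACHN had 1815 genes 2-fold higher and 1960 lower without the filter, and 533 and 530 with the stricter one. G1/S genes lowest in ACHN numbered 17 with median centring, and NRF2 genes highest in ACHN were 13 of 21 without _x_at, _s_at and _a_at probe sets. The causes were not tested, except that fewer or more genes enter where the filter or the probe sets change.

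Signs reversed without further normalization for PECAM1 (-0.0326), with the mean of probe sets for CXCL8 (-0.0119), NFE2L2 (-0.720), XAF1 (0.157) and TFE3 (-0.152), and without _x_at, _s_at and _a_at probe sets for ITGAM (0.0647) and IDI1 (0.329). With a line left out, the ACHN difference from the others ran from -0.111 to 0.123 for PECAM1, -0.231 to 0.349 for BACH1, -0.0135 to 0.402 for KEAP1, -0.537 to 0.257 for DDIT3, -0.0125 to 0.319 for SCD5 and -0.0406 to 0.169 for NFE2L2. Signals near 6.41 and 1 array a side limit all values.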

Other observations

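Further genes on no list, chosen after their values were seen, had wide differences in ACHN. ALOX5AP, which presents arachidonic acid to 5-lipoxygenase in leukotriene synthesis, had a level of 12.31 with A939572 against 9.51 with DMSO in ACHN, 7.39 against 7.19 in CAKI2, 9.17 against 9.19 in A498 and 9.98 against 7.77 in CAKI1, and its log2 differences were 2.79 in ACHN, against 0.20 (CAKI2), -0.02 (A498) and 2.21 (CAKI1). NRCAM, a neuronal cell adhesion molecule, had 2.53 in ACHN, against -0.24 (CAKI2), -0.33 (A498) and 1.81 (CAKI1) in its brightest probe set, whereas the other had 0.08 in ACHN, against -0.25, -0.03 and 0.24. In ALOX5AP and the brightest NRCAM probe set, ACHN and CAKI1 were higher with A939572 while CAKI2 and A498 lay near 0, the ordering also seen in SRXN1 and MAP2. KCNJ2, an inward-rectifier potassium channel, had 1.86 in ACHN, against -0.17 (CAKI2), 0.38 (A498) and 0.17 (CAKI1), and the cytokine receptor gene IL6R had 1.51 in ACHN, against -0.04 (CAKI2), -0.12 (A498) and 0.22 (CAKI1), so that only ACHN was at least 2-fold higher in these genes. LBH, a transcription cofactor, had -1.01 in ACHN, against 2.01 (CAKI2), 1.48 (A498) and 0.35 (CAKI1), with ACHN opposite in sign to the other 3 lines, in which it rose (limma adjusted p = 0.019).

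Growth factor signalling genes had mixed values in ACHN. The MAP kinase phosphatase gene DUSP6 had -1.03 in ACHN, against 0.36 (CAKI2), 1.36 (A498) and -0.65 (CAKI1), whereas DUSP5, of the same family, had 1.91 in ACHN, against 0.43 (CAKI2), 1.01 (A498) and 1.14 (CAKI1). ERRFI1, a feedback inhibitor of the EGF receptor, had 1.10 in ACHN, against -0.16 (CAKI2), 0.00 (A498) and 0.15 (CAKI1), and the receptor's ligand gene EREG had 1.95 in ACHN, against 1.62 (CAKI2), 0.92 (A498) and 0.04 (CAKI1). Of 29 hypoxia genes, ACHN had the lowest difference for 8 and the highest for 6, against 23.6% and 27.1% of all genes, so the list as a whole stood near the shares of all genes. Among those picked after their values were seen, ACHN was lowest for SLC2A1, a glucose transporter (-0.87 against -0.27 to 0.25), PLOD2, a collagen-modifying enzyme (-0.73 against 0.15 to 0.48), and EPAS1, the gene of HIF-2alpha (-0.57 against 0.21 to 1.33). TGFBR2, a TGF-beta receptor, had -1.03 in ACHN against -0.73 to 0.18, and ID2 had -0.92 against -0.46 to 0.70. The second probe sets of SLC2A1 and ID2 placed ACHN within the other lines, at -1.57 and -0.78. None of these passed the test of ACHN against the other lines, where limma called 0 genes and had 667 at an unadjusted p under 0.05.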
